A study of Mus musculus with 6 samples.

Results

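The integrin and cadherin genes, which encode the receptors that hold cells to the matrix and to each other, were read from a bulk RNA sequencing table of cells labelled as osteoblasts from mouse skull bone. All genes with the symbol of an integrin alpha subunit, of an integrin beta subunit from Itgb1 to Itgb8, or of a numbered cadherin were taken, and Itgam, Itgb3, Cdh5 and Cdh15 were left out. This gave 45 of the 17830 genes listed, namely 17 integrin alpha, 7 integrin beta and 21 cadherin genes. Enough reads for a test were present for 15, 6 and 11 of them, 32 in all. The 3 control libraries came from mOCN-Cre; Ai9 mice and the 3 APPswe libraries from TgAPPswemOCN-Cre; Ai9 mice, all described as male and aged 6 months. Both groups carried Cre, which had been placed in the mouse osteocalcin gene and so acts in the osteoblast lineage, and Ai9, an allele from which the red reporter protein tdTomato is made in cells that have had Cre. The APPswe mice also carried a Cre-dependent transgene for human APP with the Swedish mutation. The cells had grown out of digested skull fragments in culture and were sorted for tdTomato before the RNA was extracted. No source used here says whether the 3 libraries of a group came from separate mice or cultures, so the p-values measure only the spread between these libraries, which may be technical.

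An integrin is a pair of 1 alpha and 1 beta subunit that spans the membrane, binds matrix proteins or receptors of other cells outside, and is tied to actin inside through talin, kindlin and vinculin. The alpha subunit largely decides the ligand, and the subunits are commonly grouped into those that bind the RGD motif of fibronectin and related proteins, those that bind collagen, those that bind laminin, and those of leukocytes. Cadherins bind like cadherins on the next cell in the presence of calcium, and the classical members (types I and II) are tied to actin through catenins. In bone, osteoblasts adhere to fibronectin and collagen through integrins of the beta1 subunit, and N-cadherin (Cdh2) and cadherin-11 (Cdh11) are the cadherins best known from these cells.

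Each library held between 17263757 and 18398392 counts, so that 3 counts, taken as the floor of detection, correspond to between 0.167 and 0.173 CPM, counts scaled to a common depth after TMM normalization. This floor covers counting error only. Control replicate 2 stood apart from the other libraries. The sum of 4 Y-linked genes was 2 counts in that library against 2257 to 3406 counts elsewhere, which goes against the stated sex, and 4 of 12 osteoblast markers, the osteocalcin gene Bglap among them, had at most 3 counts in it. It was the highest or the lowest of the 6 libraries for 20 of the 32 members tested (62.5%), beside 56.9% of all genes tested. It was kept as labelled, and a value without it is given where the call or side of the adjusted p threshold then changed. This covers the family members and the ligand, adaptor and catenin genes named below. No such value is given for single marker genes.

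By FPKM, the authors' values scaled to gene length and depth and the only scale on which genes are compared with each other here, a few members of each family made up most of its transcripts. Among the beta subunits Itgb1, Itgb5 and Itgb2 had means over the 6 libraries of 232, 224 and 158 FPKM, and together with Itgb7 they gave between 99.7% and 99.9% of the beta sum in each library. Itgb1 is the common partner of most alpha subunits, Itgb5 pairs with Itgav to bind vitronectin, and Itgb2 is the beta subunit of leukocyte integrins. The alpha subunits were spread more evenly. Itga5, the fibronectin receptor subunit, had a mean of 56.5 FPKM, Itga11, a receptor for fibrillar collagen, 37.1 FPKM, and Itga6, a laminin receptor, and Itgav, the vitronectin receptor subunit, had 24.9 and 24.8 FPKM. Together these 4 gave between 69.0% and 80.1% of the alpha sum. Cdh11 was the cadherin with the highest mean level at 75.4 FPKM, ahead of Cdh2 at 21.9, Cdh13 at 5.51 and Cdh3 at 3.26 FPKM, and these 4 gave between 93.7% and 97.1% of the cadherin sum.

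**Figure D1:**
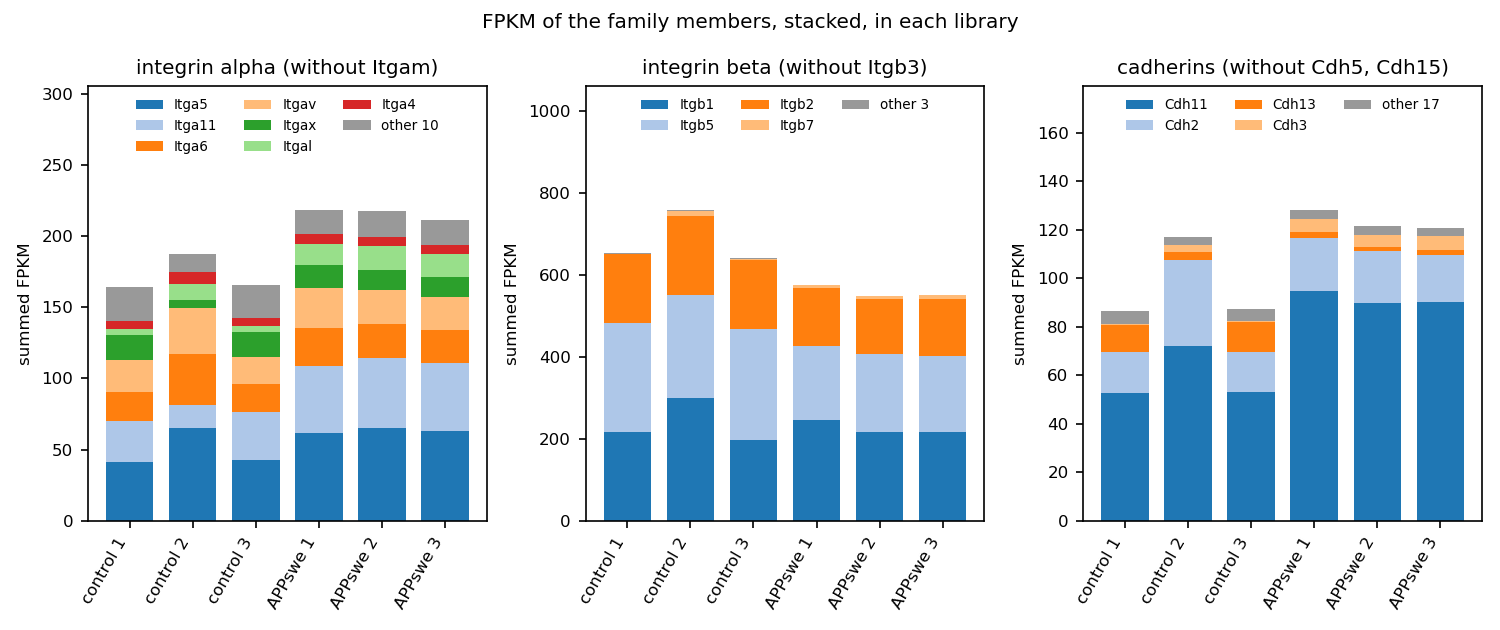
Stacked FPKM of the integrin alpha, integrin beta and cadherin genes (panels, left to right) in each of the 6 libraries, with the members of highest mean level in colour and the rest in grey. The cadherin bars of the APPswe libraries (120.77 to 128.00 FPKM) lie above all 3 control bars, while their integrin beta bars (549.13 to 576.84 FPKM) lie below all 3.

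The family sums differed between the genotypes in both directions. The summed FPKM of the integrin alpha genes was 163.82, 186.99 and 165.86 in control replicates 1, 2 and 3, and 218.09, 217.38 and 211.28 in APPswe replicates 1, 2 and 3. For the integrin beta genes the sums were 654.13, 758.36 and 640.89 in control and 576.84, 549.13 and 551.34 in APPswe libraries. The cadherin sums were 86.44, 117.14 and 87.37 in control and 128.00, 121.66 and 120.77 in APPswe libraries. In none of the 3 families did the genotypes overlap, with the alpha and cadherin sums higher and the beta sums lower in every APPswe library, and control replicate 2 was the highest control library in all 3. By CPM the cadherin sums overlapped, at 559.73 in control replicate 2 and 559.72 in APPswe replicate 3. In bulk RNA, fewer cells of a type and less RNA per cell cannot be told apart. These sums were not tested, since with 3 libraries against 3 an exact permutation test cannot go below p = 0.10. The alpha sum followed mainly Itga11, Itgal and Itga5, the beta sum Itgb5 and Itgb2, and the cadherin sum Cdh11, as the values below show.

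With all 6 libraries, the quasi-likelihood test of edgeR, with p-values adjusted by Benjamini and Hochberg's method, called 2 members higher (Itga1 and Itga2b) and 3 lower (Itga3, Itgb4 and Cdh13) in APPswe libraries. A call needed an adjusted p no higher than 0.05 and a log2 fold change of 1 or more in size. These are 5 of the 32 tested, where the same rule called 7.34% of all genes tested, 3.74% higher and 3.60% lower. At the adjusted p alone 8 members passed, the other 3 being Cdh11, Itgb5 and Itgb2, beside 22.5% of all genes. The groups did not overlap for 14 members, 8 above and 6 below control, beside 45.0% of all genes. The 8 and the 14 of 32 lie near the shares of all genes, and the calls are few. The median log2 fold change of the 32 was -0.12, and that of all genes tested was -0.0033. Without control replicate 2, 5 members were called higher and 6 lower, beside 4.87% and 6.58% of all genes (11.5% in either direction), and all 5 calls made with 6 libraries were among these 11. The groups then did not overlap for 28 of the 32 members, beside 66.1% of all genes tested.

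**Figure D2:**
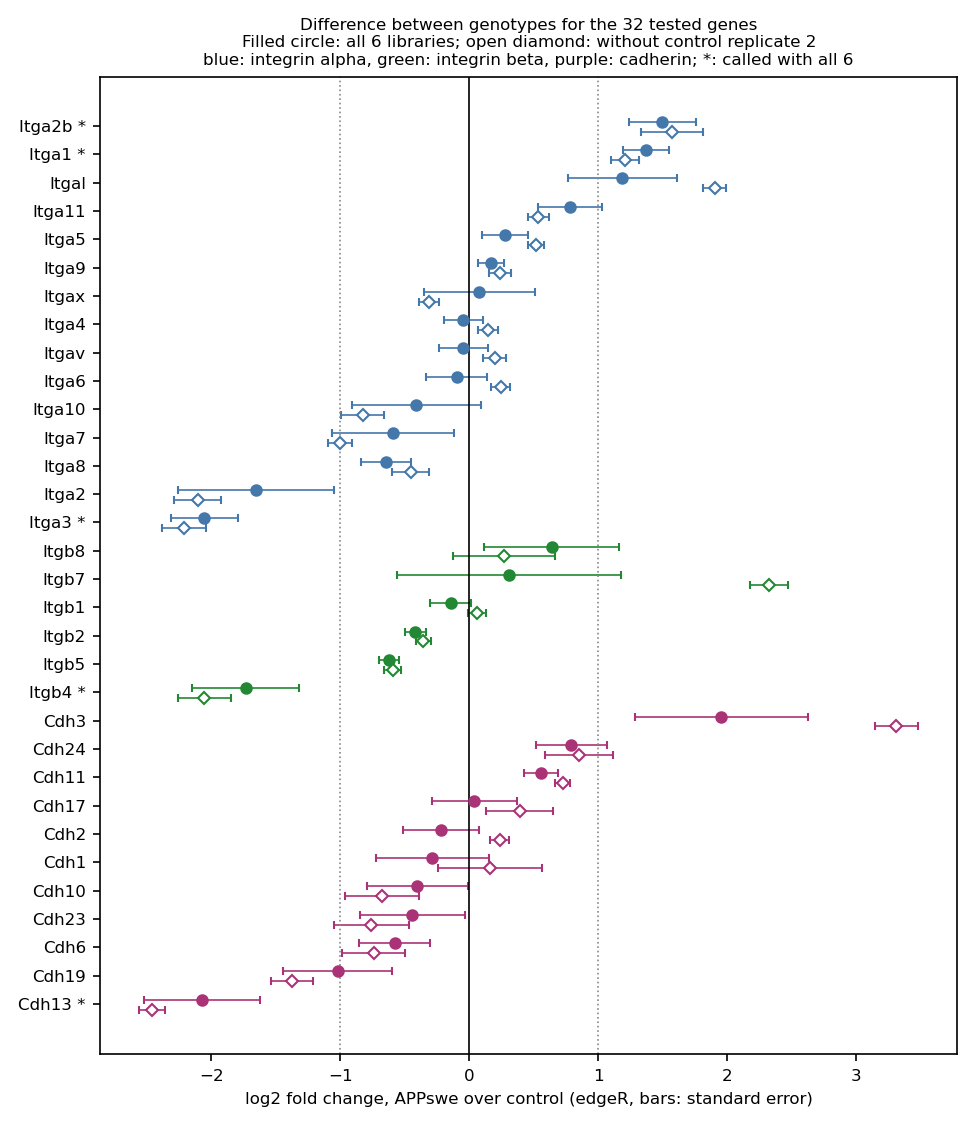
Log2 fold change of APPswe over control (x axis, edgeR, bars are standard errors) for the 32 members tested (y axis), with all 6 libraries (filled circles) and without control replicate 2 (open diamonds), and dotted lines at the limit for a call. Itgb7 moves from 0.31 to 2.32 and Cdh3 from 1.95 to 3.31 when that library is left out, while Itga1 and Itga3 stay past the same line.

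Of the collagen receptor subunits, Itga1 rose and no other passed edgeR's test with all libraries. Itga1, which with Itgb1 binds collagens, those of basement membranes in particular, was at 10.3, 6.69 and 9.37 CPM in the control replicates and at 22.2, 24.6 and 21.1 CPM in the APPswe replicates. All APPswe libraries were above all control libraries, and control replicate 2 was the lowest. The fitted change was 1.37 on the log2 scale (standard error 0.18, edgeR adjusted p = 0.00365) with all libraries and 1.21 (adjusted p = 7.68e-06) without control replicate 2, and the call was made in all 15 alternative fits. Of the exon bases of Itga1, 4.11% are shared with another annotated gene, Gm49395, on the same strand. Itga2, the subunit of the platelet collagen receptor, was at 6.53, 1.18 and 6.26 CPM in control and at 1.79, 1.34 and 1.29 CPM in APPswe libraries. Here control replicates 1 and 3 were high and control replicate 2 was the lowest of the 6, so that the groups overlapped. Its log2 fold change of -1.65 (standard error 0.60, adjusted p = 0.0956 by edgeR) did not pass the test, and without control replicate 2 the value was -2.11 (adjusted p = 5.22e-06) and was called lower. DESeq2 called it lower with all libraries as well (adjusted p = 0.0326). The limma fits took only genes with at least 0.5 FPKM in 3 libraries and so did not test Itga2. Itga11 was the collagen receptor with the highest level. It was at 138, 78.3 and 164 CPM in control and at 212, 224 and 218 CPM in APPswe libraries, without overlap. Its log2 fold change of 0.78 (standard error 0.25, adjusted p = 0.0648 by edgeR) missed the threshold. Without control replicate 2 it was 0.53 (adjusted p = 0.000281), and without control replicate 3 it reached 1.01 and was called higher. Itga10, the collagen receptor subunit known from cartilage, was between 0.46 and 1.88 FPKM in the 6 libraries and was not called, with a log2 fold change of -0.41 (adjusted p = 0.59 by edgeR) that was -0.83 (adjusted p = 0.00204) without control replicate 2, and 34.5% of its exon bases are shared with Gm42957. As a sum, the 4 collagen receptors came to 33.4, 18.2 and 38.2 FPKM in control and to 52.1, 54.7 and 52.7 FPKM in APPswe libraries, which was not tested.

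Itga1 and Itga2 are neighbours on chromosome 13, both on the minus strand, 26.0 kb apart with no protein-coding gene between them. In RefSeq coordinates of GRCm38.p6, Itga2 lies at chr13:114833081-114932100 and Itga1 at chr13:114958079-115101964. The 250 bases before each start site are shown because these adjacent genes had changes of opposite sign, that of Itga2 called by edgeR without control replicate 2 but not with all libraries. They are given from 5′ to 3′ on the minus strand, from RefSeq for GRCm38.p6, at chr13:115101965-115102214 for Itga1 and chr13:114932101-114932350 for Itga2. Capitals mark the E-box letters CAGCTG, searched on both strands, which read the same on either.
Itga1: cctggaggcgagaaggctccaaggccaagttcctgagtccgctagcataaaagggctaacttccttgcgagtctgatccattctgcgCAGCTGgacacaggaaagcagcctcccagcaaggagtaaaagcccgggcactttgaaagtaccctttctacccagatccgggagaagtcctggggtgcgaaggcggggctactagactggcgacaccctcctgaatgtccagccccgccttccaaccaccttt
Itga2: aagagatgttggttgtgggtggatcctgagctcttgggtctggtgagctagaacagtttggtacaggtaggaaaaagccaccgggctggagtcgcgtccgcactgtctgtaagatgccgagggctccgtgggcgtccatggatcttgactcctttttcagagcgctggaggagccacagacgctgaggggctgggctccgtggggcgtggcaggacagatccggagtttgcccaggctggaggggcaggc
The Itga1 window holds CAGCTG at 163 to 158 bases before the start site, and 13.0% of 32851 promoter windows of the same length hold it. Searched on both strands in the same way, the ETS family letters GAGGAA are in neither window and in 23.2% of all windows. Neither window holds the RUNX letters TGTGGT, found in 14.1% of all windows, or the AP-1 letters TGANTCA, found in 6.75%. The same is true of the GATA letters AGATAA, found in 9.99% of all windows, and of the Sp and KLF letters GGGCGG, found in 32.7%. A match is a string of letters and not a measured binding site, and the lack of a match says only that these letters are not in these 250 bases.

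Among the RGD-binding subunits, only Itga2b was called with all 6 libraries. Itga2b, best known as the alpha subunit of the platelet fibrinogen receptor, lies at chr11:102453297-102469883. It was at 0.924, 1.52 and 1.69 CPM in control and at 3.87, 3.96 and 3.88 CPM in APPswe libraries. All APPswe libraries were above all control libraries, at a level of no more than 1.27 FPKM. On the log2 scale APPswe minus control came to 1.49 (standard error 0.26, edgeR adjusted p = 0.00955), and 1.57 without control replicate 2. The call was lost without APPswe replicate 2, without APPswe replicate 3, and with limma on log2(FPKM + 1), and the adjusted p over all alternatives lay between 0.000328 and 0.0556. Itga5 was at 176, 276 and 184 CPM in control and at 246, 265 and 258 CPM in APPswe libraries. Control replicate 2 was the highest of the 6 libraries and the others were lower in control than in APPswe. In edgeR's fit the log2 fold change was 0.28 (edgeR adjusted p = 0.299), and 0.52 (adjusted p = 6.99e-05) without control replicate 2. Itgav was at 156, 226 and 136 CPM in control and at 183, 159 and 158 CPM in APPswe libraries, with groups that overlapped. Its log2 fold change of -0.05 (adjusted p = 0.877 by edgeR) was 0.20 without control replicate 2. Itga8, the receptor subunit for nephronectin, was between 0.93 and 1.39 FPKM in control and between 0.74 and 0.77 FPKM in APPswe libraries, with a log2 fold change of -0.64 (adjusted p = 0.0547 by edgeR) that was -0.46 (adjusted p = 0.0222) without control replicate 2. The exons of Itga8 share 6.40% of their bases with a gene annotated on the other strand, and whether reads were counted by strand is not given in the sources used here.

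Of the laminin receptor subunits, Itga3 fell. Itga3, a receptor for laminins of the basement membrane at chr11:95044475-95076844, was at 20.6, 14.2 and 20.8 CPM in control and at 3.36, 5.96 and 4.05 CPM in APPswe libraries. All 3 APPswe libraries were far below the lowest control library, which was control replicate 2. The level was 4.15-fold higher in control, with a log2 fold change of -2.05 (standard error 0.26, adjusted p = 0.00336 by edgeR) that became -2.21 without control replicate 2, and the call was made in all 15 alternatives. Itga6 was at 119, 210 and 116 CPM in control and at 150, 135 and 130 CPM in APPswe libraries. The groups overlapped because control replicate 2 was the highest and the other control libraries the lowest of the 6. The log2 fold change of -0.10 (adjusted p = 0.795 by edgeR) changed its sign in 4 alternatives and was 0.24 (adjusted p = 0.0196) without control replicate 2. Itga7, the main laminin receptor of skeletal muscle, was at 36.9, 9.84 and 41.0 CPM in control and at 17.5, 19.9 and 20.8 CPM in APPswe libraries. Control replicates 1 and 3 were above and control replicate 2 below every APPswe library. The log2 fold change was -0.59 (edgeR adjusted p = 0.402) with all libraries, and -1.002 (adjusted p = 1.08e-05), just past the limit for a call, without control replicate 2. Beside these values, 9 skeletal muscle markers tested were all called higher, and the 10 markers listed summed to 2.66 to 10.8 CPM in control and 162 to 168 CPM in APPswe libraries. The part of the cells behind these markers in the values of Itga7 was not tested.

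The leukocyte integrins and the subunits Itga4 and Itga9 held no call by edgeR with all libraries, while 1 of the 4 tested, Itgal, had an unadjusted p under 0.05 (as had 37.2% of all genes) and was called higher by DESeq2 and by both limma fits. Itgal, the alpha subunit of LFA-1, was at 19.2, 60.3 and 22.1 CPM in control and at 73.3, 80.0 and 78.3 CPM in APPswe libraries. The APPswe libraries were all higher, and control replicate 2 lay closer to them than to the other control libraries. The fitted change was 1.19 on the log2 scale (standard error 0.42, edgeR adjusted p = 0.0876), and 1.90 (adjusted p = 5.46e-08), a call, without control replicate 2. Itgb7, which pairs with Itga4 or Itgae in lymphocytes that home to the gut, was at 3.41, 35.8 and 3.67 CPM in control and at 15.3, 18.7 and 19.1 CPM in APPswe libraries. Control replicate 2 was the highest of all libraries and far above the other control libraries, which were the lowest. With all libraries the log2 fold change, 0.31, did not pass the test (standard error 0.87, edgeR adjusted p = 0.829), and without control replicate 2 it was 2.32 (adjusted p = 5.52e-07), a call. Without control replicate 1 or without control replicate 3 it was instead negative, at -0.16 and -0.15. Itgb2, the beta subunit that Itgal uses, was at 448, 510 and 460 CPM in control and at 360, 342 and 359 CPM in APPswe libraries. All APPswe libraries were lower, with a log2 fold change of -0.42 (standard error 0.08, adjusted p = 0.0138 by edgeR) that passed the test but not the limit on the fold change. Without APPswe replicate 1, 2 or 3 the change of Itgb2 did not pass edgeR's test (adjusted p = 0.0551, 0.0878 and 0.0722). Itgal and Itgb2 thus had log2 fold changes of opposite sign, of which only that of Itgb2 passed the test with all libraries. Itgax, a subunit of complement receptors of macrophages and dendritic cells, was at 67.7, 19.1 and 68.5 CPM in control and at 58.6, 53.7 and 51.5 CPM in APPswe libraries, with control replicate 2 the lowest and the groups overlapping. With all libraries the fitted change was 0.08 on the log2 scale (adjusted p = 0.916 by edgeR), and it turned to -0.32 (adjusted p = 0.00583) without that library. Itga4 and Itga9 were between 5.36 and 8.09 FPKM and between 2.92 and 3.86 FPKM in the 6 libraries and were not called, Itga9 having an adjusted p of 0.0417 at a log2 fold change of 0.24 without control replicate 2.

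Since these subunits are known from blood cells, markers of other cell types are given beside them. The 13 macrophage markers summed to 17410 to 24410 CPM in control and 12170 to 13150 CPM in APPswe libraries, with 1 called higher and 2 called lower and none at or under 3 counts in all libraries. The 7 lymphocyte markers, of which 5 were listed, summed to at most 2.02 CPM, and the 6 dendritic cell markers to at most 4.07 CPM, with Flt3, Xcr1 and Siglech at 0 in all libraries. The osteoclast markers summed to 143 to 223 CPM in control and 646 to 662 CPM in APPswe libraries, with 4 of 6 tested called higher. Their part in the values of the integrin genes was not tested.

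The beta subunits gave 1 call, Itgb4, and no member of this family was above control without overlap. Itgb4, which pairs with Itga6 in the hemidesmosomes of epithelia and is also found in endothelium, lies at chr11:115974725-116008412. It was at 8.26, 3.71 and 10.3 CPM in control and at 1.91, 1.78 and 2.98 CPM in APPswe libraries. The APPswe libraries were all lower, and control replicate 2 lay closer to them than to control replicates 1 and 3. On the log2 scale APPswe minus control came to -1.73 (standard error 0.41, edgeR adjusted p = 0.0277). It was -2.05 without control replicate 2, and the call was lost when any of the other 5 libraries was left out, with an adjusted p of up to 0.115, and with limma on log2(FPKM + 1). The exons of Itgb4 share 8.41% of their bases with B230344G16Rik on the other strand. Itgb5 was at 607, 662 and 649 CPM in control and at 393, 431 and 421 CPM in APPswe libraries. Every APPswe library was below every control library, and the control libraries, replicate 2 included, lay close together. The log2 fold change of -0.62 (standard error 0.08, adjusted p = 0.00326 by edgeR) was -0.59 without control replicate 2. Itgb1 was at 873, 1207 and 802 CPM in control and at 937, 831 and 838 CPM in APPswe libraries. The groups overlapped, with control replicate 2 the highest. In edgeR's fit the log2 fold change was -0.15 (standard error 0.16, edgeR adjusted p = 0.55) and turned to 0.06 without control replicate 2, so that the partner shared by Itga1, Itga3 and Itga11 did not pass the test in either fit (adjusted p = 0.537 without control replicate 2). As a share of the beta sum, Itgb1 made up 34.5% ± 4.61 (SD, n = 3) in control and 40.4% ± 1.94 (SD, n = 3) in APPswe libraries, and Itgb5 38.7% ± 4.85 (SD, n = 3) and 33.2% ± 1.76 (SD, n = 3). Itgb8, a partner of Itgav, was at most 0.44 FPKM in any library and was not called.

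**Figure D3:**
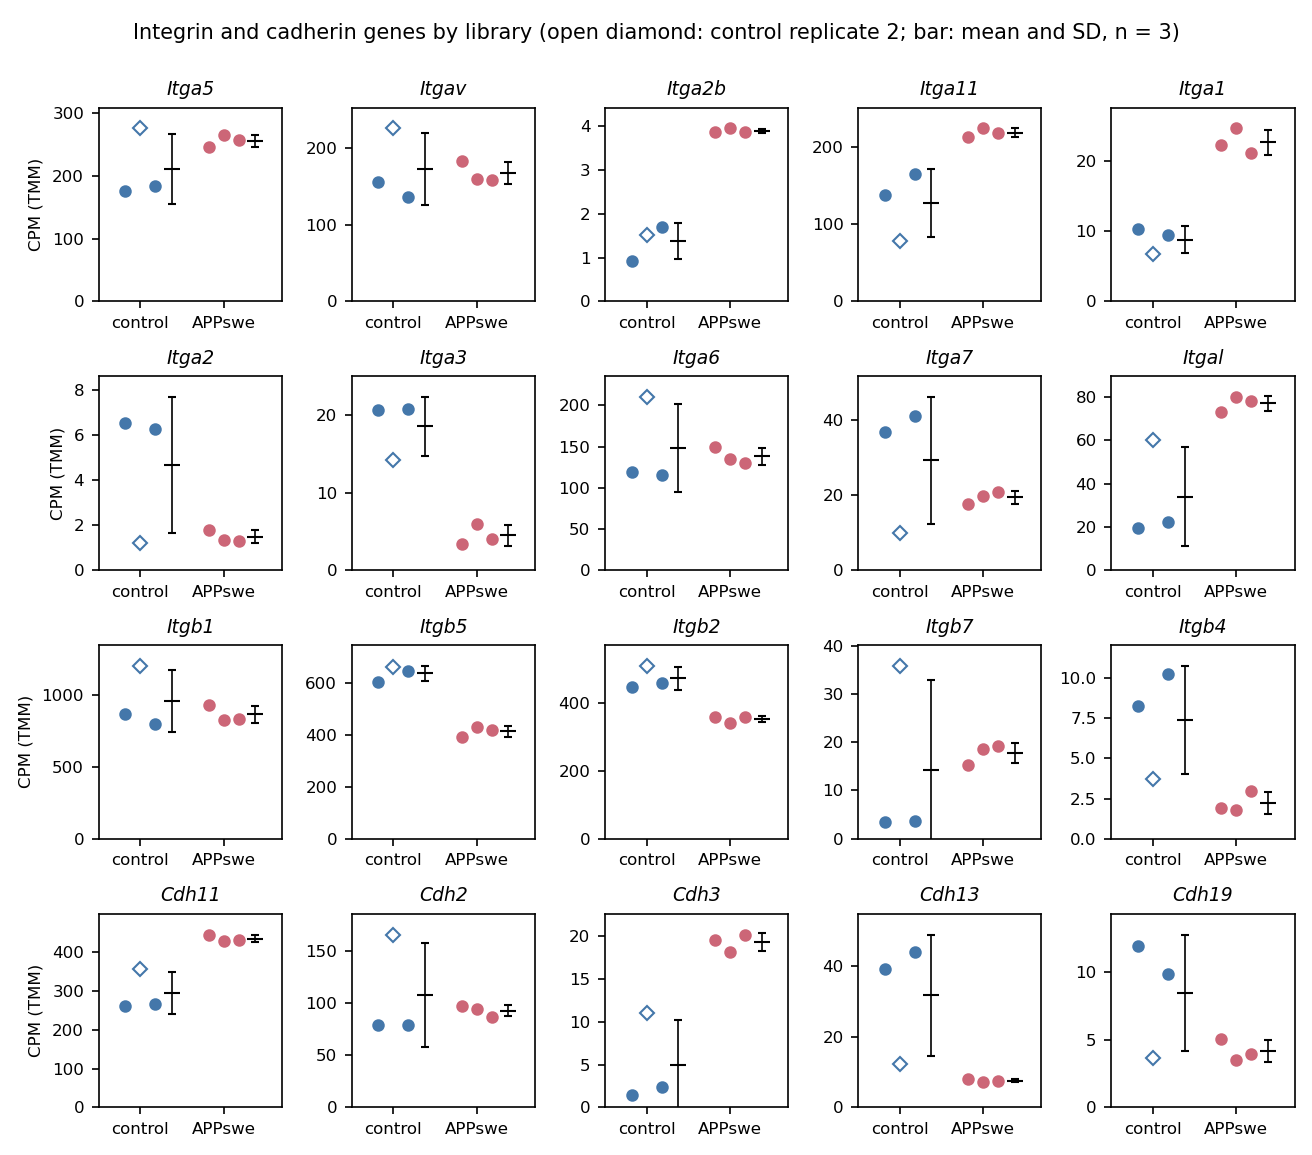
CPM of 20 integrin and cadherin genes in each library (points, y axes start at 0), with the mean and SD of the 3 libraries of each genotype beside them and control replicate 2 drawn as an open diamond. Itga1 and Itga2b of the APPswe libraries lie above, and Itga3, Itgb4, Itgb5, Itgb2 and Cdh13 below, every control library, while control replicate 2 lies apart from its group for Itgb7, Itga7, Itga2 and Cdh2.

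Cdh11 was the cadherin with the highest level and rose modestly. Cdh11, a type II cadherin of mesenchymal cells including osteoblasts, was at 261, 358 and 267 CPM in control and at 445, 428 and 432 CPM in APPswe libraries. The groups did not overlap, and control replicate 2 was the highest control library. The log2 fold change was 0.56 (standard error 0.13, edgeR adjusted p = 0.027) and passed the test without reaching the limit for a call. Without control replicate 2 it was 0.72 (adjusted p = 3.22e-06), and over the fits that left out 1 library each the adjusted p reached 0.0985. Its share of the cadherin FPKM was 61.0% ± 0.437 (SD, n = 3) in control and 74.2% ± 0.506 (SD, n = 3) in APPswe libraries, and for this share control replicate 2 (61.5%) did not stand apart. The 6 fibroblast markers, given here beside Cdh11, Itga11, Postn and Fbn1, summed to 3422, 1785 and 3412 CPM in control and to 5704 to 5853 CPM in APPswe libraries, most of it from Col3a1. Of them Pdgfra and Col3a1 were called higher and none lower, while Pdpn passed the test in the other direction short of a call. Dcn and Lum also had negative log2 fold changes, -0.58 and -0.45, without passing edgeR's test (adjusted p = 0.579 and 0.488). For both, control replicate 2 was the lowest of the 6 libraries. Thy1 was at 0.10 (adjusted p = 0.705 by edgeR). The higher sum is thus not shared by all markers listed, and the part of such cells in the values of these genes was not tested. Cdh2, the type I cadherin of osteoblasts, neurons and muscle, was at 79.1, 166 and 79.3 CPM in control and at 97.2, 94.7 and 86.9 CPM in APPswe libraries. Control replicate 2 was the highest and the other control libraries the lowest of the 6. The fitted change was -0.22 on the log2 scale (standard error 0.29, edgeR adjusted p = 0.624) with all libraries and 0.23 (adjusted p = 0.02) without control replicate 2, a change of sign.

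Cdh13 was the cadherin called with all libraries by edgeR, and no cadherin was called higher by it, while 3 cadherins with higher levels in APPswe had an unadjusted p under 0.05 (as had 17.8% of all genes in that direction) and DESeq2 and both limma fits called 1 of them, Cdh3, higher. T-cadherin, the product of Cdh13 (chr8:118140017-119324929), is anchored in the membrane by a lipid and lacks the tail that binds catenins, so it is not a classical cadherin, and it is known from blood vessels as a receptor for adiponectin. It was at 39.3, 12.2 and 44.1 CPM in control and at 8.07, 7.13 and 7.47 CPM in APPswe libraries. The APPswe libraries were lower than all control libraries, and control replicate 2 lay closer to them than to the other control libraries. On the log2 scale APPswe minus control came to -2.07 (standard error 0.45, edgeR adjusted p = 0.0208) with all libraries and -2.46 without control replicate 2. The call was lost when any other library was left out, with an adjusted p of up to 0.0918. The 8 endothelial markers summed to 196, 81.5 and 208 CPM in control and to 23.5 to 25.3 CPM in APPswe libraries, a sum that was lower in APPswe as Cdh13 and Itgb4 were, with 2 of 6 tested called lower. The markers differed in control replicate 2. It was the lowest of the 6 libraries for Pecam1, Emcn, Tek, Tie1 and Plvap, with Pecam1 at 827, 1 and 895 counts in the control replicates and at 31 to 54 counts in APPswe libraries. For the markers called lower it was instead the highest, Kdr having 188, 453 and 224 counts in control and 51 to 57 in APPswe libraries, and Vwf 661, 979 and 829 counts in control and 236 to 259 in APPswe libraries. The part of endothelial transcripts in the values of Cdh13, Itgb4 and Itga3 was not tested.

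Cdh3, or P-cadherin, a type I cadherin of epithelia and myoblasts, was at 1.50, 11.02 and 2.37 CPM in control and at 19.6, 18.1 and 20.2 CPM in APPswe libraries. All APPswe libraries were above all control libraries, and control replicate 2 was far above the other controls. Its log2 fold change of 1.95 (standard error 0.67) did not pass edgeR's test (adjusted p = 0.0803), while DESeq2 (adjusted p = 0.00726), both limma fits and edgeR without control replicate 2, at 3.31 (adjusted p = 9.16e-08), called it higher. Cdh3 lies 46.4 kb from Cdh1, the E-cadherin gene, which was at most 0.24 FPKM in any library and was not called. The 6 epithelial markers, Epcam, Krt8, Krt18, Krt5, Krt14 and Cldn4, each had at most 3 counts in every library. Cdh19, a type II cadherin of the Schwann cell lineage, was at 11.9, 3.65 and 9.82 CPM in control and at 5.05, 3.51 and 3.93 CPM in APPswe libraries. Control replicate 2 lay within the APPswe range, and the log2 fold change of -1.02 (adjusted p = 0.129 by edgeR) became -1.38 (adjusted p = 5.61e-05), a call, without that library. Cdh24 was between 0.48 and 0.68 FPKM in control and between 0.71 and 1.19 FPKM in APPswe libraries, without overlap, and its log2 fold change of 0.79 (adjusted p = 0.0823 by edgeR) did not pass the test except without control replicate 2 (0.85, adjusted p = 0.0218). The other 5 cadherins tested, Cdh6, Cdh10, Cdh17, Cdh23 and Cdh1, had overlapping groups and no call in either fit, though Cdh6 had an adjusted p of 0.0277 at a log2 fold change of -0.74 without control replicate 2.

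The 13 members that were not tested had few reads. Cdh7 and Cdh16 had 0 counts in all libraries, which at 3 counts per library allows up to 0.167 to 0.173 CPM. Cdh8, Cdh9, Cdh12, Cdh20 and Cdh22 had at most 1 count in any library, and Cdh4, Cdh18, Cdh26, Itgae and Itgb6 had at most 11. Itgad had 2, 1 and 1 counts in control and 9, 10 and 8 counts in APPswe libraries, which did not overlap, and 18.9% of its exon bases are shared with other annotated genes, so its reads may not all be its own.

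The libraries carry names of 2 styles, a hyphen for control replicates 1 and 2 and APPswe replicate 1 and a low line for the other 3, and the deposited FPKM had blanks in 397 and 716 genes respectively. The names also differ by a letter, which is S for control replicate 2 and L for every other library. What the style and the letter mark is not given. Within the hyphen style the difference in mean log2(CPM + 0.5) was 1.37 for Itga1, 1.37 for Itga2b, -2.19 for Itga3 and -1.39 for Cdh13, and within the low-line style it was 1.24, 1.01, -1.98 and -2.52. The 5 called members had groups that did not overlap. Each was therefore bound to keep its direction within both styles, which is not a test of the style. Of the APPswe libraries, the hyphen style holds replicate 1 only.

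Of 85 genes that work with these receptors, 78 were tested, and 5 were called higher and 6 lower in APPswe libraries, beside 3.74% and 3.60% of all genes. All 11 were also called without control replicate 2. The calls were mostly among the ligands. Of 34 ligand genes other than collagens 4 were called higher and 5 lower, of 32 genes for adaptors and kinases 1 was called higher and 1 lower, and of 12 genes for catenins and other cadherin-bound proteins none was called by edgeR, DESeq2 or limma, with 6 at an unadjusted p under 0.05, beside 37.2% of all genes. At an adjusted p of at most 0.05 alone, 17, 12 and 5 genes of these 3 lists passed, beside 22.5% of all genes.

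Nephronectin (Npnt), a basement membrane ligand of the integrin of Itga8 and Itgb1, was at 5.54, 5.90 and 6.60 CPM in control and at 23.9, 23.5 and 25.9 CPM in APPswe libraries. The groups lay far apart, and control replicate 2 did not stand apart from its group. In edgeR's fit the log2 fold change was 2.02 (standard error 0.12, edgeR adjusted p = 0.000406) and 2.01 without control replicate 2. Periostin (Postn), a matrix protein of the periosteum that binds integrins of Itgav, was at 626, 300 and 555 CPM in control and at 1583, 1324 and 1351 CPM in APPswe libraries, with a log2 fold change of 1.52 (standard error 0.26, adjusted p = 0.00967 by edgeR). Fibrillin-1 (Fbn1), a microfibril protein with an RGD motif, rose from 312, 686 and 339 CPM to 1092, 1070 and 1026 CPM, and Fbn2 from 6.29, 1.69 and 6.43 CPM to 15.8, 15.8 and 16.6 CPM. For these 3 genes the APPswe libraries were all above the control libraries. The calls of Fbn1 and Fbn2 (adjusted p = 0.0275 and 0.0332) were lost when any library other than control replicate 2 was left out.

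Osteopontin (Spp1), an RGD ligand of bone matrix and of macrophages, was at 9315, 6092 and 9106 CPM in control and at 3691, 3472 and 3544 CPM in APPswe libraries. All APPswe libraries were lower, with a log2 fold change of -1.19 (standard error 0.17, adjusted p = 0.00466 by edgeR). Fibronectin (Fn1), the main ligand of Itga5 with Itgb1, was at 9337, 7883 and 11003 CPM in control and at 5881, 6337 and 6312 CPM in APPswe libraries, and its log2 fold change of -0.61 (adjusted p = 0.0197 by edgeR) passed the test but was below the limit for a call. Thrombospondin-1 (Thbs1) was at 3073, 973 and 3154 CPM in control and at 3736, 3676 and 3563 CPM in APPswe libraries. The groups did not overlap, but control replicate 2 lay far below the rest, and the test was not passed (edgeR adjusted p = 0.315). Without that library the log2 fold change was 0.24 (adjusted p = 0.00413).

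Of the cell surface ligands Icam1, Icam2 and Jam2 were called lower. Icam1, the ligand of LFA-1, was at 160, 101 and 160 CPM in control and at 54.9, 56.7 and 54.5 CPM in APPswe libraries. All APPswe libraries were lower, with control replicate 2 between the groups, and the log2 fold change was -1.34 (standard error 0.18, edgeR adjusted p = 0.0042). Icam2, another LFA-1 ligand, was at 4.39, 4.38 and 3.89 CPM in control and at 1.74, 1.45 and 1.40 CPM in APPswe libraries. Its log2 fold change was -1.46 (standard error 0.19, edgeR adjusted p = 0.00381). Jam2, a junctional adhesion molecule of endothelium, was at 32.3, 10.5 and 32.3 CPM in control and at 5.89, 6.30 and 5.11 CPM in APPswe libraries. The call of Jam2 (edgeR adjusted p = 0.0158) was lost when any APPswe library was left out. Icam2 and Jam2 are also genes of endothelium, whose markers are given above.

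**Figure D4:**
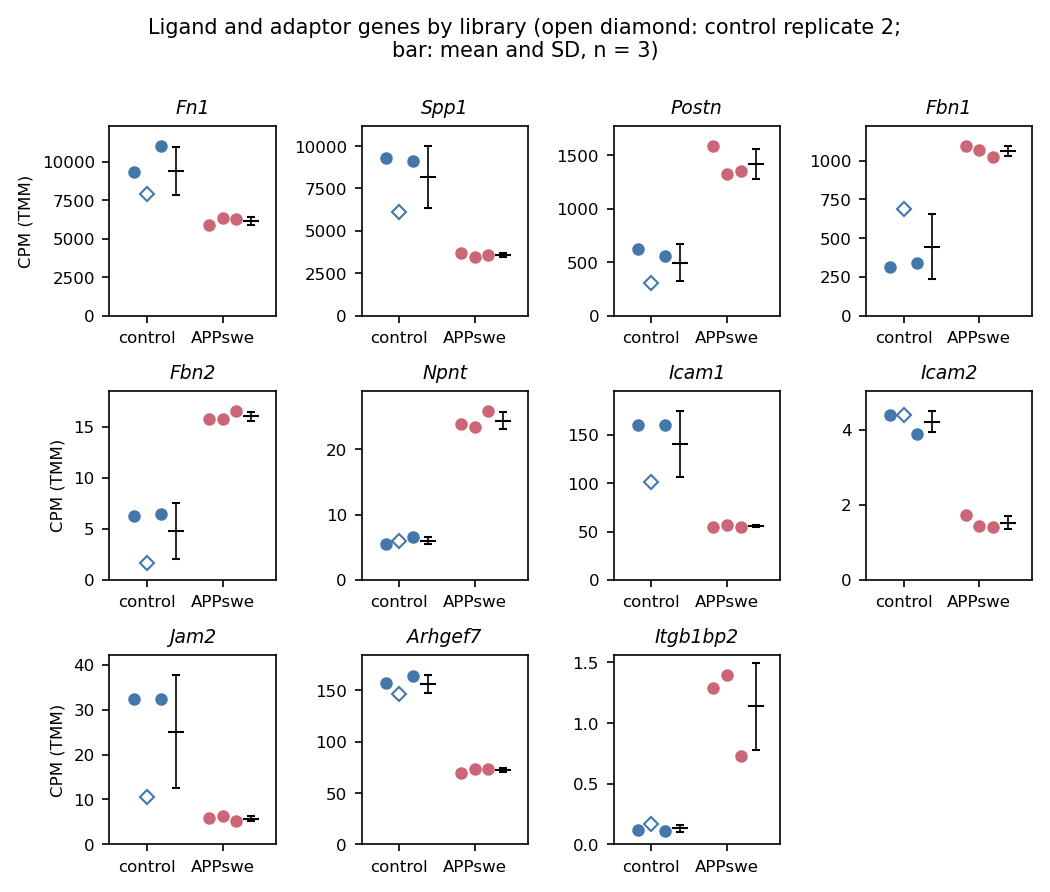
CPM of 11 ligand and adaptor genes in each library (points, y axes start at 0), with the mean and SD of the 3 libraries of each genotype and control replicate 2 as an open diamond. Fbn1, Fbn2, Npnt, Postn and Itgb1bp2 lie higher and Fn1, Spp1, Icam1, Icam2, Jam2 and Arhgef7 lower in every APPswe library than in every control library.

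Inside the cell, the calls were Arhgef7 and Itgb1bp2. Arhgef7 encodes beta-PIX, an exchange factor for small GTPases at adhesions, and was at 157, 146 and 164 CPM in control and at 69.7, 73.3 and 73.7 CPM in APPswe libraries. The groups lay far apart, with a log2 fold change of -1.11 (standard error 0.07, adjusted p = 0.000524 by edgeR). Itgb1bp2, the gene of the muscle protein melusin, had 2, 3 and 2 counts in control and 23, 25 and 13 counts in APPswe libraries, so that no fold is given, and the rise of the skeletal muscle markers stands beside it. Of the genes of highest level, talin-1 (Tln1), which switches integrins to their active state, was at 556, 770 and 638 CPM in control and at 391, 443 and 440 CPM in APPswe libraries. The change of -0.62 on the log2 scale passed the test (adjusted p = 0.0191 by edgeR) short of a call. Flna, or filamin A, was at 778, 1715 and 846 CPM in control and at 1186, 1302 and 1248 CPM in APPswe libraries, with control replicate 2 the highest and no call. The fitted change was 0.16 on the log2 scale (edgeR adjusted p = 0.73), and 0.62 (adjusted p = 2.23e-05) without that library. Actn4 was at 366, 523 and 439 CPM in control and at 336, 386 and 391 CPM in APPswe libraries and did not pass the test (edgeR adjusted p = 0.239).

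Of the catenins tested, none was called. Beta-catenin (Ctnnb1) was at 660, 552 and 676 CPM in control and at 625, 637 and 611 CPM in APPswe libraries, with a log2 fold change of -0.01 (standard error 0.10, adjusted p = 0.942 by edgeR). For p120-catenin (Ctnnd1) the log2 fold change was 0.02 (standard error 0.07), and for alpha-catenin (Ctnna1) it was -0.17 (standard error 0.07, edgeR adjusted p = 0.153). None of these 3 passed the test, while plakoglobin (Jup) did, with a log2 fold change of -0.77 (adjusted p = 0.0253 by edgeR) that was short of a call. Ctnnd2 and Ctnna2, known from neurons, had few reads. Ctnnd2 was at 2.08, 8.43 and 1.47 CPM in control and at 1.29, 1.45 and 1.35 CPM in APPswe libraries, with a log2 fold change of -1.55 (adjusted p = 0.143 by edgeR) that was -0.37 without control replicate 2, its highest library. Ctnna2 was at 2.83, 3.32 and 2.60 CPM in control and at 1.85, 1.73 and 0.843 CPM in APPswe libraries. Its groups did not overlap, and the log2 fold change of -0.98 (adjusted p = 0.0707 by edgeR) was -0.87 (adjusted p = 0.0252) without control replicate 2.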

How the data were processed

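Bulk RNA sequencing of 6 libraries (3 control and 3 APPswe) was analysed. The libraries were made with a SMARTER mRNA kit and sequenced on a DNBseq instrument. The deposited counts are the authors' raw reads per gene, and the deposited FPKM values were scaled and rounded by the authors. Blank FPKM cells, in 397 or 716 genes, were read as 0. The deposited table also holds the log2 fold changes and p-values of the authors' own comparison, which were not used. The genome build is GRCm38 per the labels; the aligner and counting tool are not given in the sources used here.

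The counts were fitted with edgeR 4.0.16 in R 4.3.3 (TMM, filterByExpr, 13484 of 17830 genes kept, quasi-likelihood test, no covariate, Benjamini-Hochberg adjustment over all genes tested). Depth was 17263757 to 18398392 counts per library, with a floor of 3 counts. Calls needed an adjusted p no higher than 0.05 and a log2 fold change of 1 or more in size. All tests were two-sided. The standard error is the size of the log2 fold change over the square root of F. Other fits tried were DESeq2 1.42.0, edgeR with the DESeq2 size factors, no TMM, no filter, at least 10 counts in every library, a replicate block, library name style as a covariate, the adjusted p alone, limma 3.58.1 on log2(FPKM + 1) or log2(FPKM + 0.1) for genes with at least 0.5 FPKM in 3 libraries, and each library left out in turn. The fits were tested on simulated data. No pair of libraries, of 15 compared, was within sampling noise.

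The members and gene lists were chosen with earlier results of these data known. Values in every library are given for members called or at an adjusted p of at most 0.05, the 4 of each family with the highest mean FPKM, Cdh2, Cdh11 and Itga7, and, of the partner lists, called genes and the 3 of each list with the highest mean CPM (Ctnnd1 and Ctnna1 by their fold changes). Itgal, Itga2, Itgax and Cdh19 and the genes Jup, Ctnnd2 and Ctnna2 were named in addition after their values were seen. A gene of the partner lists that was called lower is counted with its list but is not reported here. Gene coordinates and promoter sequences are those of RefSeq for GRCm38.p6, found for 45 and 29 of 45 members, and exon overlaps are from GENCODE for GRCm38.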

Additional observations from a re-analysis of the deposited data

How the results depend on the processing

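Low counts left 13 members untested. The calls of Cdh13, Itgb4, Fbn1 and Fbn2 were made in 1 of the 6 fits that left out 1 library, the one without control replicate 2. The alternatives were followed for members called or at an adjusted p of at most 0.05, the 4 of each family with the highest mean FPKM, and Itga7. Of the values of these members, 206 kept their direction and side of the adjusted p threshold, 22 fell short of it, 13 newly passed it, and 13 reversed. Of all 32 members tested, 8 were at an adjusted p of at most 0.05 with all libraries and 24 without control replicate 2. For all genes these were 3036 of 13484 and 6637 of 13753. The integrin calls (2 higher, 2 lower) became 4 lower at the adjusted p alone and 1 lower with limma on log2(FPKM + 1). The cadherin calls (0 higher, 1 lower) became 1 higher with DESeq2 and with both limma fits, the gene being Cdh3. At the adjusted p alone they also became 1 higher, but the gene was Cdh11. The partner calls (5 higher, 6 lower) became 16 higher and 18 lower at the adjusted p alone and 3 lower with limma on log2(FPKM + 1). With each library left out in turn, 1 to 4 integrins were higher and 1 to 4 lower, 0 to 1 cadherins higher and 0 to 2 lower, and 3 to 6 partner genes higher and 4 to 9 lower, with the most calls without control replicate 2. Itga6 reversed to 0.032 with the name style as a covariate, 0.026 and 0.029 with limma and 0.24 without control replicate 2, and Itgav to 0.021 without TMM, 0.083 with the name style, 0.049 and 0.052 with limma and 0.20 without control replicate 2. Without that library Itgb1 reversed to 0.056 and Cdh2 to 0.23, and Itgb7 reversed to -0.16 and -0.15 without control replicates 1 and 3. With the replicate block, 2 integrins were called higher and 2 lower, 0 cadherins higher and 1 lower, and 4 partner genes higher and 5 lower, Fbn2 and Jam2 being lost. The deviations of same-numbered libraries correlated at 0.0736, -0.0364 and 0.158, so the numbers were not taken to pair them. Over all genes the block gave 384 higher and 324 lower against 504 and 486, limma on log2(FPKM + 1) gave 324 and 187, the filter of 10 counts gave 320 and 412, the adjusted p alone gave 1414 and 1622, and the fits without 1 library gave 281 to 670 and 230 to 905. Over those last fits the log2 fold change ranged from -0.25 to 0.24 for Itga6, -0.20 to 0.20 for Itgav, -0.26 to 0.06 for Itgb1, -0.16 to 2.32 for Itgb7 and -0.40 to 0.23 for Cdh2. The causes of these changes were not tested.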
